A study of Mus musculus with 4 samples.

Results

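Transcripts for the respiratory chain were compared between NSN and SN oocytes. The members were chosen by gene symbol as the nuclear genes for subunits of complexes I to V (the Nduf, Sdh, Uqcr, Cox4 to Cox8 and Atp5 families, Cyc1 and Cycs) and the mt- genes for proteins, and 97 of the 16861 genes listed in each library met this rule, of which 84 were nuclear and 13 mitochondrial. All 4 libraries came from germinal vesicle (GV) oocytes of 3-week-old female C57BL/6J mice, which are oocytes still arrested before meiotic maturation, and 2 libraries of 15 oocytes were available for each group. The oocytes were taken from antral follicles, freed of cumulus cells by pipetting, stained with the DNA dye Hoechst in medium with milrinone, and sorted by eye into non-surrounded nucleolus (NSN) oocytes, with diffuse chromatin, and surrounded nucleolus (SN) oocytes, with a ring of chromatin at the nucleolus. The zona pellucida was removed with pronase E before lysis. Oocytes of several animals may have been pooled in a library, and the labels do not say how animals were assigned to libraries, so p-values measure only the spread between these libraries.

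The respiratory chain passes electrons from NADH and succinate through complexes I and II, ubiquinone, complex III, cytochrome c and complex IV to oxygen, and complex V, the ATP synthase, uses the proton gradient that results to make ATP. Complex II and cytochrome c are encoded in the nucleus alone, whereas complexes I, III, IV and V join nuclear subunits to subunits made from mitochondrial DNA inside the organelle. The oocyte carries a large stock of mitochondria, which is divided among the cells of the early embryo. The comparison asks whether the transcripts of the 2 genomes stood at different levels before and after the change in chromatin configuration.

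Smart-seq2 copies RNA from its poly(A) tail, and the values are FPKM, that is read pairs divided by gene length and library total. Levels can be compared between genes only roughly, since they depend on the poly(A) tail. For genes with copies or shared exons they also depend on where reads can be assigned. Totals of 17069772 to 17998361 read pairs per library and the read pairs of all 97 members were recovered from the FPKM, and for a gene 1 kb long 3 read pairs amount to 0.167 to 0.176 FPKM, a limit that covers counting error only. A gene was called where limma on log2(FPKM + 0.5), fitted over the 11672 genes whose mean FPKM reached 0.5, gave a fold of at least 1.2 with a p under 0.05 after Benjamini-Hochberg adjustment. The fit called 926 genes (7.93% of those tested), 695 higher in SN (5.95%) and 231 lower (1.98%), and the median log2 fold change of all genes tested was 0.14. Median scaling, which brought that median to 0.00512, left 257 calls (2.2%), 78 higher (0.668%) and 179 lower (1.53%), and with it the share of lower calls passed that of higher calls. All 8 oocyte markers were listed, with a summed FPKM of 20877 to 22226 in NSN and 14217 to 14990 in SN libraries, and 6 of them were called lower. Of 14 cumulus and granulosa cell markers 8 were listed, with a summed FPKM of 9.48 to 13.6 in NSN and 13.7 to 13.8 in SN libraries, none of the 4 tested was called, and Amh, Amhr2 and Foxl2 were not among the listed genes. The part of these markers in the differences below was not tested. Since each value is a share of a library, more RNA of a gene per oocyte and less of the other RNA cannot be told apart.

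Reads of mitochondrial genes can also map to copies of mitochondrial DNA in the nuclear genome. On GRCm39, chrM:6390-11042 aligned to the minus strand of chr1:24650616-24655269 over 4654 bases with 2 mismatches and 1 gap, an identity of 99.936% over 28.6% of the 16299 bases of the mitochondrial genome. The only mismatch inside a fully or almost fully copied gene lay at the start of mt-Nd3, which encodes a core subunit of complex I, and was T9461C, with positions counted along the mitochondrial genome and the mitochondrial base first. The pair of windows is shown because a read pair of these genes could be assigned by such a base, which is in capitals (chrM:9431-9491, plus strand, and chr1:24652168-24652228, minus strand). Read pairs that reach the gap or pass the ends of the copied stretch could be assigned as well.

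mt-Nd3 window: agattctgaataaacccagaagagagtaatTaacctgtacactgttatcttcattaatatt
chromosome 1 copy: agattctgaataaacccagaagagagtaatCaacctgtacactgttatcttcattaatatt

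The authors kept alignments with a mapping quality of at least 10, which a read pair with equal matches in both places does not reach in general. The copy covered mt-Co2, mt-Atp8, mt-Atp6, mt-Co3 and mt-Nd4l in full, 99.1% of mt-Nd3, 63.6% of mt-Nd4 and 31.3% of mt-Co1, and it did not reach mt-Nd1, mt-Nd2, mt-Nd5, mt-Nd6 or mt-Cytb. The 6 genes copied over more than 95% of their length had mean FPKM of 4.23 to 37.8, below the range of 42.7 to 1383 of the 5 genes with no copy, and its part in the levels was not tested.

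The promoters of the nuclear members were searched for letters that nuclear respiratory factors bind. NRF1 and GABPA, an ETS factor that is the DNA-binding part of NRF2, are known regulators of many respiratory chain genes. RefSeq windows of 300 bases (250 before and 50 after the start, build GRCm38.p6) matched 66 of the 84 nuclear members. The letters of an NRF1 site, GCGCA, any base and then GCGC, were searched on either strand. A gene counted where any of its windows held a match. The NRF1 letters occurred in 17 of the 66 (25.8%), in 5.19% of all 27025 genes with windows and in 11.9% of the 8321 tested here. The letters CCGGAAG of GABPA, searched on both strands, occurred in 16 (24.2%), in 9.93% of all genes with windows and in 20.7% of those tested. Of the 10 called nuclear members 8 had a window, of which 3 held an NRF1 match and 0 a GABPA match. Windows of 4 members with large differences are shown, picked after their values and matches were seen, with the matches in capitals: Uqcrc1 (chr9:108936398-108936697, plus strand) held 2 NRF1 matches, Atp5me (chr5:108434350-108434649, minus strand) 1 match of each kind, Atp5f1e (chr2:174464052-174464351, minus strand) 1 GABPA match and Cox7c (chr13:86046746-86047045, minus strand) no match.

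Uqcrc1 promoter: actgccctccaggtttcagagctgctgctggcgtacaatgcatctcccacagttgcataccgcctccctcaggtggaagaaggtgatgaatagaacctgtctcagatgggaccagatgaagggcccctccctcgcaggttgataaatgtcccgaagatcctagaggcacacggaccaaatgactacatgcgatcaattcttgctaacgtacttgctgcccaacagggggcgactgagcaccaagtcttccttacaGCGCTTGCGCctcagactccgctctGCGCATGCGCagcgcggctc
Atp5me promoter: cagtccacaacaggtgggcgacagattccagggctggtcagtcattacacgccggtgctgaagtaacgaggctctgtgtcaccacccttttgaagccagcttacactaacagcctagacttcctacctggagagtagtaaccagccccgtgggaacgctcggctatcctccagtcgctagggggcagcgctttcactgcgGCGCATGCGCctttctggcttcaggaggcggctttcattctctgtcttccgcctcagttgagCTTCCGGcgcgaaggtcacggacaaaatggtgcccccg
Atp5f1e promoter: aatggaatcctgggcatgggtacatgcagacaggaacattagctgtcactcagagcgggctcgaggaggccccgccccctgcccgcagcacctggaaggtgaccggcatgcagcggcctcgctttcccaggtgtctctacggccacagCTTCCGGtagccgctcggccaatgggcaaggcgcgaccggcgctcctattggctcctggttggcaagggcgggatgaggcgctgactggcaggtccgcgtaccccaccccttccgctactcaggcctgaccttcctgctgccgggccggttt
Cox7c promoter: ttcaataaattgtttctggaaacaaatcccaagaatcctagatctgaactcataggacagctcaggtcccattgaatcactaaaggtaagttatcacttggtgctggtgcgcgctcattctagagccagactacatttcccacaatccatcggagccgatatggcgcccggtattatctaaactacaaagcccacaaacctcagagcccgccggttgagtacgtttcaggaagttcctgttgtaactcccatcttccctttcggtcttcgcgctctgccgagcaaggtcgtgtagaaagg

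Uqcrc1 was called lower and Cox7c higher in SN oocytes, and the other 2 were higher in both SN than in both NSN libraries but were not called.

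From NSN to SN oocytes, nuclear transcripts of 8 subunits rose, 4 of them of complex IV, and those of Uqcrc1 of complex III and Atp5f1a of the ATP synthase fell. Of the mitochondrial transcripts, 4 of complex I rose and mt-Atp6 of the ATP synthase fell. Of the 97 members 95 passed the filter. Of the 82 nuclear members tested 8 were called higher and 2 lower, which is 10 calls against 7.93% of all genes, and 72 were not called. Their median log2 fold change was 0.20, against 0.14 over all genes tested, and with median scaling it was 0.0461. By complex, the nuclear medians were 0.20 for I, 0.13 for II, 0.15 for III, 0.30 for IV and 0.13 for V, and with median scaling they were 0.0461, -0.0257, 0.00151, 0.15 and -0.0197 in the same order, so those of II and V had another sign. Both SN libraries lay above both NSN libraries for 43 nuclear members, where 44.8% of all genes did so, and below for 10, where 17.8% of all genes did so. Of the 13 mitochondrial genes 4 were called higher and 1 lower, and their median log2 fold change was 0.26, or 0.13 with median scaling. The number of calls changed with the library left out, but such a fit has 1 library in a group, so its counts are not compared. In these fits the median log2 fold change of the nuclear members was 0.19 to 0.25. With the filter raised to a mean FPKM of 5, 26 of the nuclear members past it were called, beside 27.1% of all 5519 genes past it. The number of nuclear members past that filter is not given, so the 2 shares are not compared. With voom on the recovered read pairs 16 of the 82 were called, against 19.8% of all genes. Of the 15 calls in both genomes voom made 12 and not those of Ndufs6, Cox4i2 and mt-Nd4l. For the mitochondrial genes the median log2 fold change with a library left out was 0.17 to 0.40. With median scaling, quantile normalisation (1.97% of all genes called, 1.34% lower) or a correction for gene length (1.23% called, 0.822% lower), 3 of the 15 calls were left, namely Uqcrc1, Atp5f1a and mt-Atp6, all lower in SN, and no rise was called. These settings also brought the median of all genes tested to 0.00512, 0.0164 and 0.0143 in that order.

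**Figure D1:**
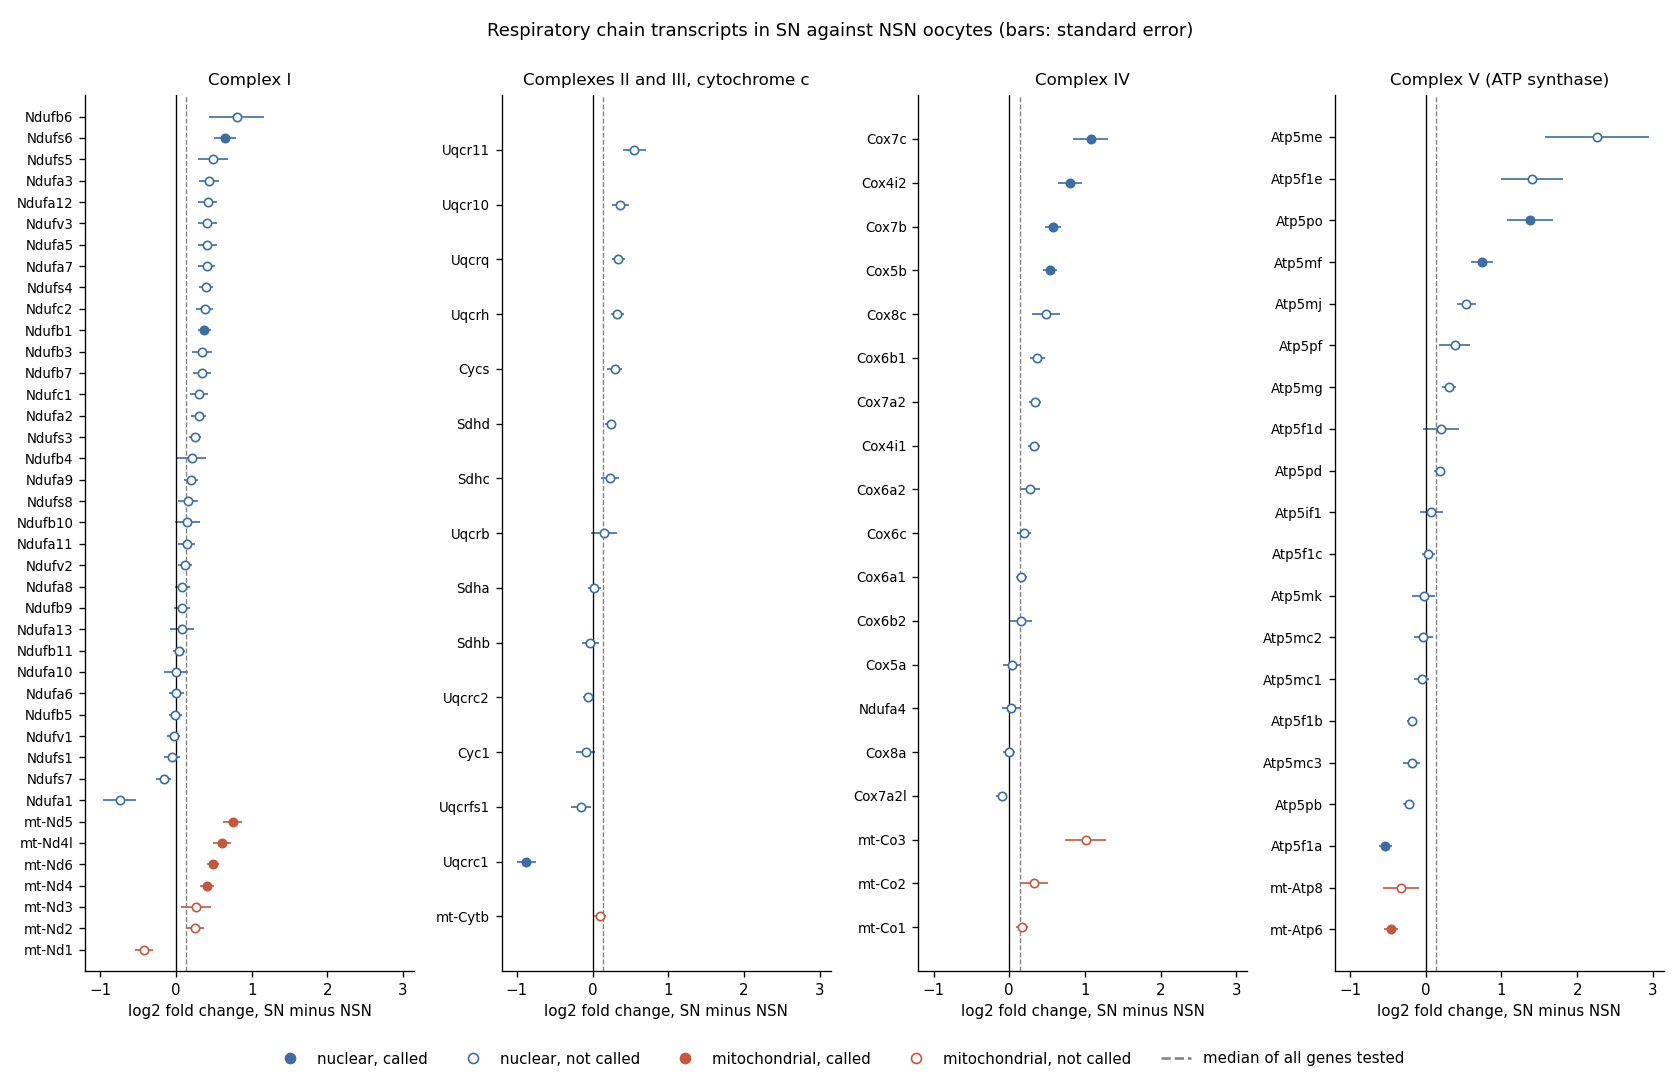
The log2 fold change is plotted for 94 of the 95 tested members, SN minus NSN, with its standard error as a bar, in blue for nuclear and red for mitochondrial genes and with filled points for called genes. The dashed line is the median of all genes tested (0.14), the points of Atp5me, Atp5f1e and Atp5po lie furthest to its right, and those of Uqcrc1, Ndufa1, Atp5f1a and mt-Atp6 furthest to its left.

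Complex I takes electrons from NADH, and its core, which holds the flavin, the iron-sulphur clusters and the membrane-bound proton pumps, is made from both genomes, with many accessory subunits around it. Of the 34 nuclear members tested 2 were called higher, where 5.95% of all genes were, and none lower. Ndufs6, an accessory subunit that binds zinc, had FPKM of 3.36 and 4.34 in NSN and 6.37 and 6.17 in SN libraries. Its groups did not overlap and it rose by a log2 fold change of 0.65 ± 0.15 (SE, n = 2 per group), with an adjusted p of 0.0495 in limma, but was not called by voom (adjusted p = 0.0554) or with a pseudocount of 0.1 (adjusted p = 0.0525 in limma). Ndufb1, a small membrane subunit, had FPKM of 40.1 and 43.6 in NSN and 55.0 and 53.7 in SN libraries. It rose by 0.38 ± 0.09 (adjusted p = 0.049 in limma), and since 45% of its exons overlap other genes, Cpsf2 among them, its level is uncertain.

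The 7 nuclear core subunits of complex I, among them Ndufs1, Ndufs3, Ndufv1 and Ndufv2, had a median log2 fold change of -0.03, with 0 called, and the 27 accessory subunits tested had a median of 0.30. Core transcripts were also longer, with a median length behind the FPKM of 1623 bases against 860.0 for the accessory subunits. With the correction for length the medians were -0.09 and 0.14. Ndufa1, a short accessory subunit on the X chromosome, was the member of complex I with the largest negative value, at 2.33 and 3.73 FPKM in NSN and 1.68 and 1.46 in SN libraries (log2 fold change -0.74 ± 0.22, adjusted p = 0.0778 in limma). It was picked after its values were seen, and its groups did not overlap. The most abundant nuclear member, Ndufb11, was at 170.0 and 167 in NSN and at 163 and 183 in SN libraries, so that its groups overlapped (log2 fold change 0.04 ± 0.08), and 67.8% of its exons overlap Rbm10. Ndufb2 and Ndufb8, further membrane subunits, had mean FPKM under the filter and were not tested.

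The mitochondrial genome encodes 7 core subunits of complex I, and 4 of them were called higher in SN. mt-Nd5, a proton pump of the membrane arm at chrM:11742-13565, had FPKM of 29.6 and 33.8 in NSN and 58.9 and 48.6 in SN libraries. Its lowest SN value lay above its highest NSN value, and it rose by a log2 fold change of 0.75 ± 0.12 (SE, n = 2 per group; adjusted p = 0.0364 in limma). mt-Nd6, the only protein gene on the light strand (chrM:13552-14070), had 54.9 and 51.1 FPKM in NSN and 74.5 and 74.7 in SN libraries, and rose by 0.49 ± 0.08 (adjusted p = 0.0368 in limma). The counting took no account of strand, so reads from RNA of the opposite strand cannot be told apart from those of mt-Nd6. Neither gene has the nuclear copy. mt-Nd4 (89.7 and 88.3 in NSN, 126 and 111 in SN libraries) rose by 0.41 ± 0.09 and mt-Nd4l (6 and 6.39 in NSN, 9.27 and 10.1 in SN libraries) by 0.61 ± 0.11, with adjusted p of 0.0466 and 0.0406 in limma. mt-Nd4l rests on 31, 34, 47 and 54 read pairs and was not called by voom (adjusted p = 0.151). These 2 genes lie next to each other, are carried on a shared transcript and are copied in part or in full on chromosome 1.

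The other 3 mitochondrial genes of complex I were not called. mt-Nd1, at chrM:2751-3707 the first protein gene after the ribosomal RNA genes, went the other way, with 638 and 511 FPKM in NSN and 445 and 405 in SN libraries. Its groups did not overlap, with a log2 fold change of -0.43 ± 0.12 and an adjusted p of 0.0679 in limma, and voom on the recovered read pairs called it lower (adjusted p = 0.0102). mt-Nd2 was at 84.9 and 95.5 in NSN and 117 and 98.8 in SN libraries (0.25 ± 0.11), and mt-Nd3 at 3.14 and 4.49 in NSN and 4.04 and 5.27 in SN libraries (0.26 ± 0.20), where the groups overlapped. The values of mt-Nd1 and mt-Nd5, which are on the same strand, thus lay on opposite sides of 0.

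**Figure D2:**
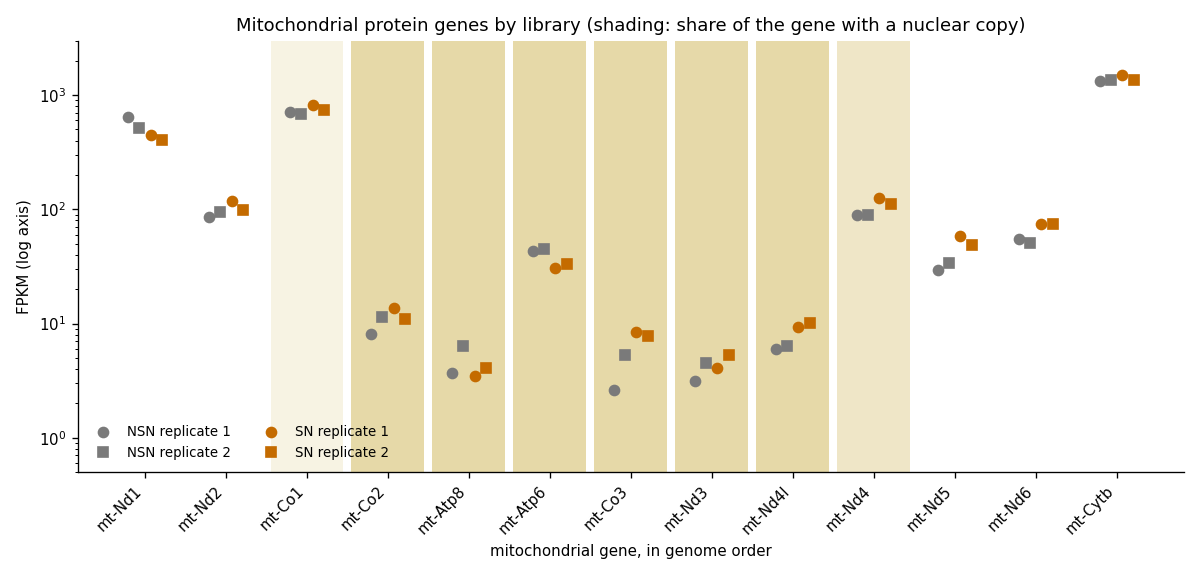
FPKM of the 13 mitochondrial protein genes are plotted on a log axis in genome order, with a point for each library and with shading that deepens with the share of the gene copied on chromosome 1. Fully copied genes lie between 2.64 and 44.8, those with no copy between 29.6 and 1510.0, and the SN points lie above the NSN points for mt-Nd5 and mt-Nd6 and below them for mt-Nd1 and mt-Atp6.

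Complex II oxidises succinate in the TCA cycle as well as in the chain and is the only complex without mitochondrial subunits. None of its 4 genes was called, and their log2 fold changes ran from -0.03 to 0.24. Sdhd, a membrane anchor and its most abundant member, was at 247 and 251 FPKM in NSN and 286 and 301 in SN libraries. Its groups did not overlap (log2 fold change 0.24 ± 0.07, adjusted p = 0.0802 in limma).

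Complex III passes electrons from ubiquinol to cytochrome c, and 1 of its 9 nuclear members was called. Uqcrc1, a core protein of the matrix side (chromosome 9, 108765701 to 108778710 on GRCm39, plus strand), had FPKM of 13 and 10.9 in NSN and 6.49 and 6.02 in SN libraries. Both SN libraries were well below both NSN libraries, and it fell by 0.88 ± 0.13 on the log2 scale (SE, n = 2 per group; adjusted p = 0.0364 in limma). Its partner in the core, Uqcrc2, was at 102 and 100.2 in NSN and 96.9 and 97.0 in SN libraries, with a log2 fold change of -0.06 ± 0.07, and 29.7% of its exons overlap other genes. The small subunits Uqcrh, Uqcrq, Uqcr10 and Uqcr11, chosen after their values were seen, were higher in both SN than in both NSN libraries, as were 44.8% of all genes. Their log2 fold changes were 0.33, 0.34, 0.37 and 0.55, with no call. Uqcrb, a further small subunit picked after its values were seen, was at 20.5 and 26.5 in NSN and 29.7 and 22.7 in SN libraries, with overlapping groups (0.15 ± 0.17). The catalytic subunits Cyc1, which carries haem, and Uqcrfs1, the iron-sulphur protein, picked in the same way, had log2 fold changes of -0.09 and -0.16, also with no call. The mitochondrial subunit of the complex, mt-Cytb, was the most abundant member at 1319.7 and 1353 FPKM in NSN and 1510.0 and 1349.9 in SN libraries, its groups overlapped, and its log2 fold change of 0.10 ± 0.08 had another sign with median scaling (-0.06). Cycs, the soluble carrier cytochrome c, was at 11.6 and 10.9 in NSN and 14 and 13.7 in SN libraries (0.29 ± 0.10, adjusted p = 0.108 in limma), and 39.5% of its transcript has a near-identical copy elsewhere in the genome.

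Complex IV, cytochrome c oxidase, reduces oxygen, and it had the highest median log2 fold change among the nuclear groups of complexes I to V (0.30 over 16 genes). Of these genes 4 were called higher and none lower, beside 5.95% and 1.98% of all genes. Their median length was 710.5 bases. With median scaling their median log2 fold change was 0.15 and with the length correction 0.11, with no call in either. Cox7c, a small membrane subunit, had FPKM of 8.38 and 11.5 in NSN and 26.6 and 16.9 in SN libraries. It rose by a log2 fold change of 1.08 ± 0.23 (adjusted p = 0.0455 in limma), the 2 SN libraries stood further apart from each other than the 2 NSN libraries, and 32.9% of its transcript has near-identical copies. Cox7b was at 36.7 and 35.1 in NSN and 58.2 and 49.8 in SN libraries (0.58 ± 0.10), and Cox5b at 31.1 and 31.7 in NSN and 43.1 and 48.4 in SN libraries (0.53 ± 0.09), each with an adjusted p of 0.0375 in limma. Neither pair of groups overlapped, and 55.6% of the Cox5b transcript has a near-identical copy on chromosome 13.

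Several subunits of complex IV exist as isoforms, some of them typical of lung, muscle or testis. Cox4i2, the isoform of subunit 4 known from lung and from low oxygen, had 0.948 and 0.992 FPKM in NSN and 2.01 and 2.12 in SN libraries and was called higher (0.80 ± 0.16, adjusted p = 0.0419 in limma). It rests on 13, 14, 27 and 30 read pairs, and voom did not call it (adjusted p = 0.0823). Its ubiquitous counterpart Cox4i1 was at 99.7 and 108 in NSN and 134 and 128 in SN libraries, a log2 fold change of 0.33 ± 0.08 that missed the threshold (adjusted p = 0.0536 in limma). The transcripts for subunit 4 were thus mostly those of Cox4i1 in both groups, and protein was not measured. Cox6a1, the general isoform, was at 126 and 131 in NSN and 145 and 142 in SN libraries, and Cox6a2, the isoform of heart and skeletal muscle, at 16.2 and 13.3 in NSN and 16.8 and 19.0 in SN libraries, with log2 fold changes of 0.16 and 0.28. Cox6b1 and its testis isoform Cox6b2 were at like levels, 11.4 to 15.7 and 11.2 to 15.3 FPKM over the 4 libraries, with log2 fold changes of 0.37 and 0.15. Cox7a2 was at 68.6 and 73.8 in NSN and 90.7 and 90.0 in SN libraries (0.34 ± 0.08, adjusted p = 0.0508 in limma), while Cox7a2l, which takes part in joining complexes III and IV, was at 332 and 331 in NSN and 301 and 319 in SN libraries (-0.10 ± 0.07). Cox7a2l was the most abundant nuclear member of the complex, and 94.8% of its transcript has a near-identical copy. Cox8a lay between 98.3 and 103 FPKM, and the testis isoform Cox8c lay between 0.366 and 0.849. Cox7a1, Cox7b2 and Cox8b are not analysed here, as they are not among the listed genes.

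The 3 mitochondrial subunits, which form the catalytic centre, were not called. mt-Co1 was at 708 and 676 FPKM in NSN and 820.3 and 741 in SN libraries (0.17 ± 0.08, adjusted p = 0.187 in limma). Both SN libraries exceeded both NSN libraries. mt-Co2 was at 8.06 and 11.5 in NSN and 13.7 and 10.9 in SN libraries (0.33 ± 0.19), and mt-Co3 at 2.64 and 5.34 in NSN and 8.44 and 7.80 in SN libraries (1.01 ± 0.27, adjusted p = 0.0676 in limma). The lower levels of the last 2 are those of genes copied in full on chromosome 1, so they cannot be read as the ratio of the 3 transcripts.

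**Figure D3:**
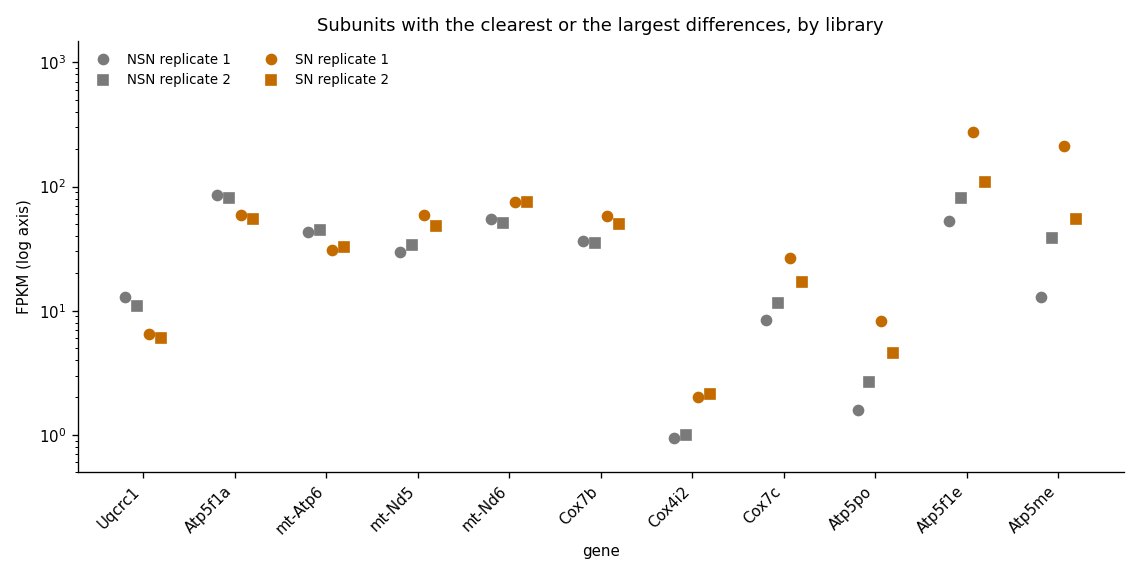
FPKM of 11 members are plotted on a log axis with a point for each library, grey for NSN and orange for SN. The SN points of Uqcrc1, Atp5f1a and mt-Atp6 lie below the NSN points, those of the other 8 lie above, and SN replicate 1 is the highest library for Cox7c, Atp5po, Atp5f1e and Atp5me.

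Complex V, the ATP synthase, joins a catalytic F1 head to a membrane-bound Fo motor, and of its 18 nuclear members 2 were called higher and 1 lower, beside 5.95% and 1.98% of all genes. Atp5f1a, the alpha subunit of the head, had FPKM of 85.2 and 80.3 in NSN and 58.8 and 55.2 in SN libraries. The groups were far apart relative to the spread within them, and it fell by 0.53 ± 0.08 on the log2 scale (SE, n = 2 per group; adjusted p = 0.0364 in limma). Atp5f1b, the beta subunit that alternates with alpha in the head and the most abundant nuclear member of the complex, was at 339 and 328 in NSN and 298 and 289 in SN libraries, lower in both SN libraries but not called (-0.18 ± 0.07, adjusted p = 0.132 in limma). For Atp5f1b 23.3% of the exons overlap other genes.

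The 2 members called higher were Atp5po and Atp5mf, and no other nuclear subunit of the stalk or the membrane part was called. Atp5po, the subunit of the peripheral stalk that confers sensitivity to oligomycin, had FPKM of 1.58 and 2.66 in NSN and 8.25 and 4.57 in SN libraries. It rose by a log2 fold change of 1.38 ± 0.30 (adjusted p = 0.0459 in limma), and since its symbol names 2 gene identifiers in the annotation, 1 of them a read-through gene, its level is uncertain. Atp5mf, a small membrane subunit, was at 4.50 and 5.14 in NSN and 9.35 and 7.51 in SN libraries (0.74 ± 0.15, adjusted p = 0.0424 in limma), and its groups did not overlap. The largest differences among all members, picked after their values were seen, were those of 2 short transcripts that were not called. Atp5me, a membrane subunit at which ATP synthases pair, had FPKM of 12.9 and 38.2 in NSN and 214 and 54.8 in SN libraries, which come from 83, 254, 1353 and 366 read pairs. Atp5f1e, the smallest subunit of the head, had 52.7 and 81.6 in NSN and 278 and 109 in SN libraries. In both, SN replicate 1 stood far above SN replicate 2, and the log2 fold changes of 2.26 ± 0.69 and 1.40 ± 0.41 had adjusted p of 0.0837 and 0.0791 in limma. Without SN replicate 1 the lowest values were reached, 1.28 for Atp5me and 0.73 for Atp5f1e, and voom called both (adjusted p = 0.013 and 0.00835). The libraries stood in the same order for Atp5me, Atp5f1e, Atp5po and Cox7c, with NSN replicate 1 lowest, then NSN replicate 2, SN replicate 2 and SN replicate 1.

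Subunit c, which forms the rotor ring of Fo, is made from 3 nuclear genes with different targeting peptides and the same mature protein. Atp5mc1 was at 14.6 and 15.7 FPKM in NSN and 14.1 and 15.0 in SN libraries, and Atp5mc3 at 15.3 and 13.3 in NSN and 12.1 and 12.8 in SN libraries. Atp5mc2 had the highest FPKM, at 80.6 and 82.3 in NSN and 70.0 and 90.4 in SN libraries, and 89.2% of its transcript has near-identical copies. The length behind the FPKM was 731 bases for Atp5mc2 and 4912 for Atp5mc1. Atp5mc1 had more read pairs in each library (1247 and 1381 in NSN, 1182 and 1325 in SN). Those of Atp5mc2 were 1026 and 1077 in NSN and 874 and 1189 in SN libraries. Of the Atp5mc1 transcript 27.7% has near-identical copies, so the order of these genes is uncertain. None of the 3 was called, with log2 fold changes of -0.06, -0.03 and -0.19 for Atp5mc1, Atp5mc2 and Atp5mc3.

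The mitochondrial genome adds 2 overlapping genes to Fo. mt-Atp6, the subunit of the proton channel (chrM:7927-8607), had FPKM of 42.8 and 44.8 in NSN and 30.7 and 32.9 in SN libraries. The groups did not overlap, and it fell by 0.46 ± 0.09 on the log2 scale (adjusted p = 0.0408 in limma). mt-Atp8, which shares 21.1% of its bases with mt-Atp6, was at 3.66 and 6.29 in NSN and 3.45 and 4.09 in SN libraries, with overlapping groups (-0.32 ± 0.24), and without NSN replicate 2 the value was 0.03. Both genes are copied in full on chromosome 1.

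Summed FPKM gave the balance of the 2 genomes within each library, which does not depend on the library total. The nuclear members summed to 3834 and 3935 in NSN and 4544 and 4280.2 in SN libraries, and the mitochondrial members to 2992 and 2887 in NSN and 3222 and 2900.3 in SN libraries. The nuclear sum was higher in both SN libraries, while the mitochondrial sums overlapped. These nuclear sums contain Atp5me, at 12.9 and 38.2 in NSN and 214 and 54.8 in SN libraries. They also contain Atp5f1e, at 52.7 and 81.6 in NSN and 278 and 109 in SN libraries. Neither gene was called, and their part in the sums and in the ratio that follows was not tested. The ratio of mitochondrial to nuclear FPKM was 0.780 and 0.734 in NSN and 0.709 and 0.678 in SN libraries, a log2 difference of -0.13 with the groups apart, against a largest difference between replicates of 0.09. An exact permutation test of 2 against 2 libraries cannot give a two-sided p under 0.333, so no p is given for this difference. With medians of log2 values in place of sums the difference was 0.07, and with quantile normalisation it was 0.00206, so its direction depended on how the genes were weighted. The 3 most abundant mitochondrial genes (mt-Cytb, mt-Co1 and mt-Nd1) held 87.6% to 90.6% of the read pairs of the 13.

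By complex, the log2 ratio was -0.21 and -0.48 in NSN and -0.54 and -0.70 in SN libraries for complex I. The groups did not overlap there, but the difference of -0.28 was as large as that between the NSN replicates. mt-Nd1, at 638 and 511 of summed mitochondrial FPKM of 906 and 790.1 in NSN and at 445 and 405 of 835 and 753 in SN libraries, was the only one of the 7 mitochondrial genes with a negative log2 fold change. For complex V the ratios were 0.0438 and 0.0466 in NSN and 0.0235 and 0.0329 in SN libraries. Its log2 difference of -0.70 was the largest of the 4 complexes, and the nuclear sums behind it (1063 and 1099 in NSN, 1452 and 1123 in SN libraries) contain Atp5me and Atp5f1e. For complexes III and IV the groups overlapped, and the differences of 0.02 and 0.05 were smaller than those between replicates.

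**Figure D4:**
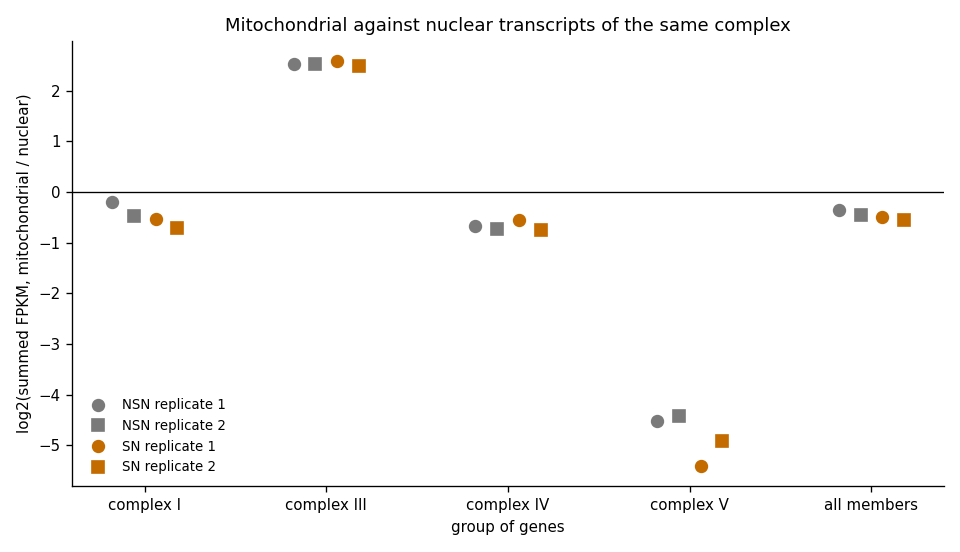
The log2 ratio of summed FPKM, mitochondrial over nuclear, is plotted for each library by complex and over all members. NSN and SN points are apart for complex I, complex V and all members and overlap for complexes III and IV, and only complex III, where mt-Cytb stands alone, has ratios above 0.

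Many nuclear members have short transcripts, so they were also grouped by length. The 25 members with a length behind the FPKM under 700 bases had a median log2 fold change of 0.33, the 31 from 700 to 1200 bases also 0.33, and the 26 of 1200 bases or more 0.01. All 8 rises called were between 700 and 1200 bases, both falls were in the longest class, and none of the shortest class was called. Over all genes tested, 60 of 1044 in the shortest class were called higher and 22 lower, 74 and 18 of 1234 in the middle class, and 560 and 191 of 9378 in the longest. With median scaling the medians were 0.17, 0.18 and -0.14, the last with another sign. Over all genes tested, without that scaling, the medians in the same classes were 0.22, 0.16 and 0.13. Across the 82 nuclear members the log2 fold change and log2 length had a Pearson r of -0.380, against 0.03 across 11656 genes tested, and genes of a library are not independent replicates. After the loess correction of each library for length over all genes, r was -0.271 in the nuclear members and their median log2 fold change was 0.06. The correction also took the median of all genes tested from 0.14 to 0.0143. The drop in the nuclear median thus cannot be read as that of length alone. The difference between the NSN replicates also moved with length in these members (r = 0.280), as did that between the SN replicates (r = -0.193), and the part of length in the differences between groups was not tested.

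**Figure D5:**
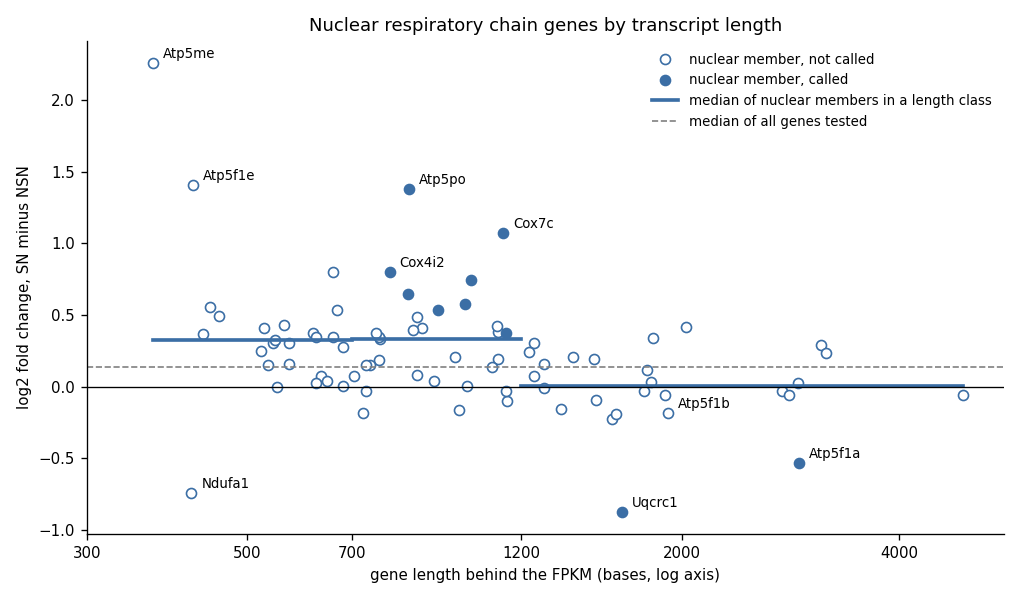
The log2 fold change of the 82 tested nuclear members, SN minus NSN, is plotted against the gene length behind the FPKM on a log axis, with filled points for called genes and blue lines for the median of each length class. The medians are 0.33, 0.33 and 0.01, and the dashed line is the median of all genes tested.

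Genes that build or supply the chain were taken from lists of assembly factors, mitochondrial DNA and RNA factors, nuclear regulators and TCA cycle enzymes, and the calls in them stand beside the 5.95% of all genes called higher and the 1.98% called lower. Of 51 assembly factors tested 1 was called, Cmc1, which acts in the assembly of complex IV and had FPKM of 48.5 and 51.4 in NSN and 72.5 and 72.5 in SN libraries (log2 fold change 0.53 ± 0.08, adjusted p = 0.0364 in limma). The median of the assembly factors, 0.15, was close to that of all genes tested. Among 15 genes of mitochondrial DNA replication and transcription tested 1 was called lower, Tfam, which packages mitochondrial DNA and is needed for its transcription, with 8.81 and 7.43 in NSN and 5.38 and 4.61 in SN libraries (-0.65 ± 0.14, adjusted p = 0.0457 in limma). Among 18 genes of mitochondrial RNA processing and decay tested 2 were called higher. Grsf1, a protein of the mitochondrial RNA granules, was at 11 and 11.6 in NSN and 19.4 and 18.3 in SN libraries (0.72 ± 0.10, adjusted p = 0.0364 in limma). Mtpap, the mitochondrial poly(A) polymerase, was at 69.9 and 74.9 in NSN and 94.0 and 91.7 in SN libraries (0.36 ± 0.08, adjusted p = 0.0473 in limma). Of 6 nuclear regulators tested Pparg was called higher, at 24.2 and 31.0 in NSN and 53.5 and 57.9 in SN libraries (1.01 ± 0.13, adjusted p = 0.0364 in limma), and Gabpa and Ppargc1a were under the filter. The 19 TCA cycle and entry enzymes tested had a median log2 fold change of 0.00528. The mitochondrial ribosomal RNA genes were not called, with log2 fold changes of 0.03 and 0.30. With median scaling Grsf1 and Pparg were still called, and Cmc1, Tfam and Mtpap were not.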

How the data were processed

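RNA-seq of 4 libraries of mouse GV oocytes was used, 2 NSN and 2 SN. The authors trimmed reads with Trim Galore 0.6.10, aligned them with HISAT2 to GRCm39, assigned read pairs to GENCODE exons with featureCounts (primary alignments, mapping quality of at least 10, no strand), tested their counts with DESeq2, and deposited FPKM made with a script of their own. The labels speak of 3 samples per group, and 2 are analysed here. Whole read pairs were recovered for 99.83% of the 16861 listed genes. The precision of low values is limited by these read pairs. Values were taken as log2(FPKM + 0.5) and compared with limma 3.58.1 (lmFit, eBayes with a variance trend) in R 4.3.3, two-sided, as given in the report. A fold change on this scale understates that of low genes. In 5 simulated sets of read pairs for the SN against NSN comparison, with 200 genes changed of 11502 tested at the median, 58.6% of all changes and 82.5% of the 2-fold or 3-fold changes were recovered, with a median of 9.09% and a maximum of 13.2% of false calls. Near-identical copies (at least 98% identity over 100 bases) were found with blastn 2.17.0 in GRCm39, and shared exons and gene lengths came from a later GENCODE release of that build. Other values were computed with Python 3.11.15, pandas 2.3.3, numpy 2.4.6 and scipy 1.17.1, and figures with matplotlib 3.10.9.

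The members and gene lists were chosen with earlier results of these data known. The genes named are the 13 mitochondrial genes, all called nuclear members, the most abundant nuclear member of each complex, the isoform groups, and up to 3 called genes in each direction in the other lists. Members named outside this rule are marked as chosen after their values were seen, except the core subunits of complex I and those under the filter, which are named to account for them. Alternatives were other pseudocounts (0.1 and 1), no filter on the mean FPKM or one at 5, median scaling, quantile normalisation, totals without mitochondrial genes, a fit without the variance trend, a block on the replicate number, a loess correction for length (span 0.3) with and without the block, voom on recovered read pairs, and a fit without each library. Removing genes with copies, and medians in place of sums, were added after the data were examined. Values of some single genes are not reported here, although they enter the counts and medians of their groups.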

Additional observations from a re-analysis of the deposited data

How the results depend on the processing

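The counts of called genes were 10 nuclear members, 5 mitochondrial genes and 6 genes of the other lists, beside 7.93% of all genes tested. In that order they were 2, 1 and 3 with median scaling, 2, 1 and 3 with quantile normalisation, and 2, 1 and 2 with the length correction. The shares of all genes called in these settings were 2.2%, 1.97% and 1.23%. With all listed genes, and with no variance trend, limma called 0, 0 and 0, where 41, 7 and 32 genes in the first setting and 31, 7 and 26 in the second had an unadjusted p under 0.05. The shares of all genes are not given for these 2 settings, so their counts are not a result about the members. The filter at 5 FPKM gave 26 nuclear members and 11 of the other lists, and voom 16 and 15, beside 27.1% and 19.8% of all genes. With a library left out the counts were 0 to 22, 0 to 6 and 0 to 13, the lone library being assumed to vary like the other group, and all 3 were 0 without NSN replicate 1. Without copied genes 2 mitochondrial genes were called. The remaining settings without a block left the counts within 1.5 times of those given.

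The median log2 fold change of the nuclear members, 0.20, was 0.0461 with median scaling, 0.11 with quantile normalisation, 0.0586 with the length correction, with or without the replicate block, and 0.19 to 0.25 with a library left out. That of the mitochondrial genes, 0.26, was 0.13 with median scaling, 0.11 with the length correction, with or without the block, and 0.17 to 0.40 with a library left out. The log2 difference in the ratio of the genomes, -0.13, was 0.00206 with quantile normalisation, 0.0740 with medians in place of sums and -0.17 to -0.0818 with a library left out, and pseudocounts, the variance trend and voom do not enter it. The sign was reversed for mt-Cytb (-0.0589 with median scaling, -0.0293 with the length correction), Ndufb11 (-0.12, -0.0345 and -0.12 with median scaling, quantile normalisation and the length correction), Cox6a1 (-0.0493 with the length correction) and Cox6b2 (-0.0323 and -0.0382 with quantile normalisation and the length correction), the length values being the same with the block. With a library left out, values on both sides of 0 were found for mt-Atp8 (-0.68 to 0.0320), Ndufb11 (-0.0437 to 0.12), Cox8a (-0.0351 to 0.0337) and Atp5mc2 (-0.22 to 0.15). The causes were not tested.

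With the replicate number as a block, limma called 4 nuclear members, 2 mitochondrial genes and 3 genes of the other lists. Over all 11672 genes tested that fit called 266 higher and 156 lower. With the length correction as well it called 0, 0 and 0 (22, 7 and 23 with an unadjusted p under 0.05), and no share of all genes is given there. Replicate differences of the 2 groups had a correlation of -0.0703 across genes. The labels do not say whether libraries of the same number share a batch, and with 2 libraries per group this correlation cannot decide it. The 2 libraries per group limit the precision of all comparisons, and few read pairs limit that of members near the filter, such as Cox8c.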
